A study of Homo sapiens with 2 samples.

Results

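The mitochondrial genome is a small circle of DNA kept inside the organelle, and its 37 genes are described here in Hep3B, an established human hepatocellular carcinoma line. They were picked by symbol from the 43424 symbols of the count files, which write them without the MT prefix, so that COX1 stands for MT-CO1 and TRNV for MT-TV. All 37 had an entry in both files: 2 ribosomal RNAs, 13 messenger RNAs and 22 transfer RNAs. One library came from cells given GLE, a Glehnia littoralis (coastal plant) extract, and the other from cells given DMSO, the solvent control. The labels mark the cells of both as WT, and no source used here gives the dose or time for the sequenced cells (a viability assay in the labels ran for 24 h at up to 500 µg/mL). Libraries were made from 500 ng of total RNA with a Lexogen QuantSeq kit, which primes on poly(A) and reads near the 3′ end of an RNA. The series asked whether GLE acts on these cells.

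Both strands of this genome are transcribed into long precursors that carry many genes each. Transfer RNAs lie between most of the other genes, and cutting them out frees the ribosomal and messenger RNAs, a scheme known as tRNA punctuation. Most of the freed messenger RNAs then receive short poly(A) tails, which in several of them also complete the stop codon. Their 13 proteins are core subunits of the respiratory chain complexes I, III and IV and of ATP synthase (complex V), and the ribosomal and transfer RNAs serve the organelle's own translation. Hepatocytes are rich in mitochondria.

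The GLE library held 3636351 counts and the DMSO library 5618328. With 1 library per group there was no replicate check, so no test between conditions was made, and every interval below is a 95% counting interval (exact Clopper-Pearson) that leaves out variation between cultures. Ratios are GLE over DMSO after scaling by the trimmed mean of M-values (TMM), and CPM is a gene's count relative to the size of its scaled library, the usual depth-corrected unit. All 10 hepatocyte and hepatoma markers, ALB and AFP among them, had counts in both libraries, summing to 12366 CPM with GLE and 15508 CPM with DMSO. Markers of fibroblasts summed to 20.4 CPM with GLE and 4.67 CPM with DMSO over 6 genes. Markers of blood and immune cells summed to 439 CPM with GLE and 469 CPM with DMSO over 5 genes, most of it from LYZ, with CD3E at 0 in both. Endothelial markers summed to 0.283 CPM with GLE and 6.23 CPM with DMSO over 4 genes, with CDH5, VWF and KDR at 0 in both. The part of such cells in the results was not tested. Fewer cells, fewer mitochondria and less RNA per cell cannot be told apart in RNA from a whole culture.

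Mitochondrial genes took a somewhat larger part of the GLE library than of the DMSO library, and the make-up of that part differed more. The share of ribosomal RNA was higher and that of messenger RNA lower with GLE, much of the latter through COX3. The 37 genes held 24.6% of GLE counts (24.6 to 24.7) and 22.4% of DMSO counts (22.3 to 22.4). Ribosomal RNA held 13.2% with GLE and 8.52% with DMSO. Messenger RNA lay the other way, at 11.3% with GLE and 13.7% with DMSO. Transfer RNA genes held 0.202% with GLE and 0.151% with DMSO. When RNR1 and RNR2 were taken out of both the genes and the total, the order of the libraries turned round, and the remaining 35 genes held 13.2% of GLE counts and 15.1% of DMSO counts. Within the mitochondrial counts alone, which no scaling of nuclear genes can move, ribosomal RNA made up 53.4% with GLE (53.3 to 53.5) and 38.1% with DMSO (38 to 38.2).

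**Figure D1:**
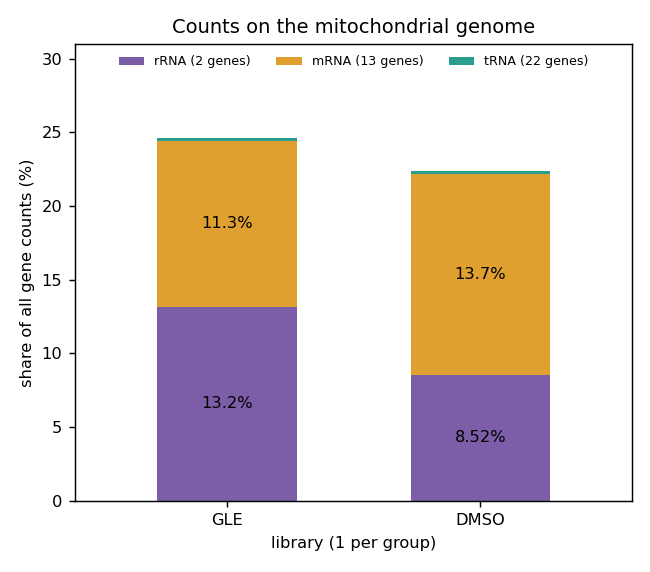
Share of all gene counts (y axis, %) held by the mitochondrial ribosomal, messenger and transfer RNA genes in the GLE and DMSO libraries (x axis, 1 library each). The ribosomal part is 13.2% with GLE and 8.52% with DMSO, and the transfer RNA part is the thin band at the top.

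Of the 37 genes, 29 reached the minimum of 30 counts summed over both libraries, and the 8 that did not were all transfer RNAs. At least 2-fold higher counts were seen for 2 of the 29, TRNV and TRNL1, where 9.54% of all 11068 measured genes of the series were that much higher. At least 2-fold lower counts were seen for 11 of the 29, where 10.5% of all measured genes were that much lower. Those 11 were 3 messenger RNAs (COX3, ND3 and ND6) and 8 transfer RNAs. The counting interval lay above 1 for 11 genes and below 1 for 16, and for 27.7% and 30.1% of all measured genes. An interval leaves out 1 more readily at greater depth. Only 26 genes outside the mitochondrial genome had as many counts as the messenger RNAs other than ND6. These interval counts and shares are therefore not compared at like depth. ND2 and COX2, among the 11, dropped below 1 under other scalings. The median log2 ratio of the 29 was -0.54, and that of all measured genes was -0.04. A transfer RNA with few counts passes the minimum more readily when it is high in one library, so the transfer RNA part of these counts is a description of those that passed.

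**Figure D2:**
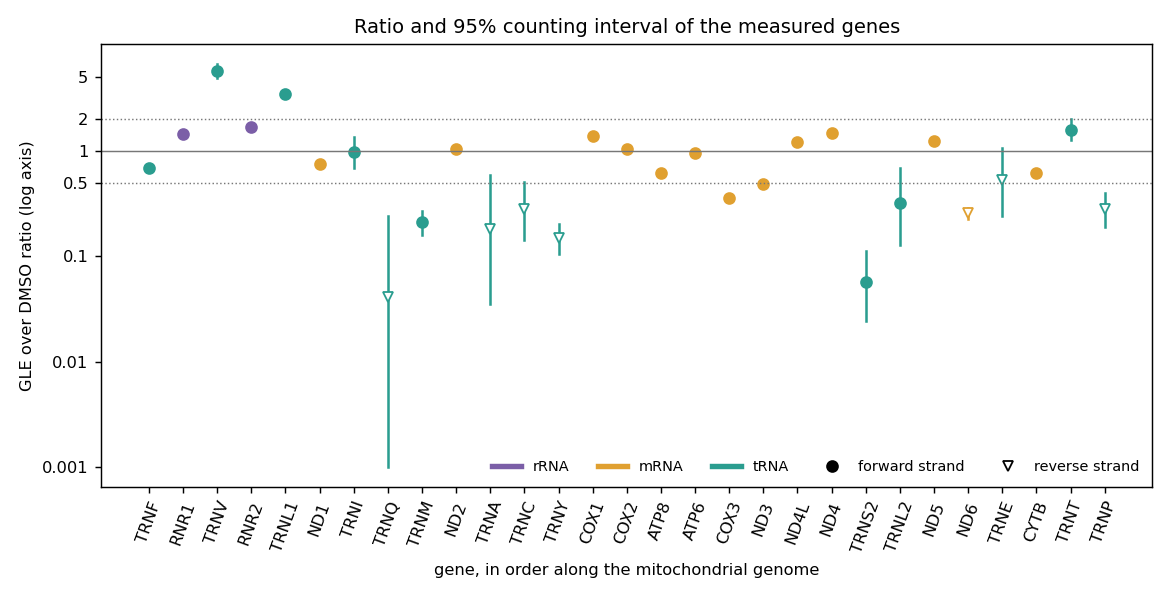
GLE over DMSO ratio (y axis, log scale) of the 29 measured genes in their order along the genome (x axis). Points are ratios, vertical lines are 95% counting intervals, dotted lines mark 2-fold, open triangles are reverse strand genes and colours are RNA classes. TRNV and TRNL1 lie above the upper dotted line, every open triangle lies below 1, and ND2, COX2, ATP6 and TRNI lie so close to 1 that another scaling puts them on its other side.

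The ribosomal RNAs came first in the GLE library. RNR2, the RNA of the large mitochondrial ribosomal subunit (chrM:1671-3229, GRCh38, forward strand), had 354849 counts or 100356 CPM with GLE and 340461 counts or 58924 CPM with DMSO. Its ratio was 1.70 (1.70 to 1.71). RNR1, the RNA of the small subunit (chrM:648-1601), had 123346 counts or 34884 CPM with GLE and 138370 counts or 23948 CPM with DMSO, a ratio of 1.46 (1.45 to 1.47). Both were thus higher with GLE, and under all 7 other scalings tried their ratios stayed above 1, at no less than 1.46 for RNR2 and 1.25 for RNR1. They did not move by the same amount. RNR2 made up 74.2% of the ribosomal counts with GLE (74.1 to 74.3) and 71.1% with DMSO (71.0 to 71.2), a difference that needs no scaling between libraries.

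The 13 messenger RNAs all passed the minimum and spread to both sides, with ratios between 0.256 and 1.496 and a median log2 ratio of -0.05. Summed, they had a ratio of 0.873 (0.869 to 0.876). By counting interval, 6 of the 13 lay above 1 and 7 below, so no common lowering follows from the sum. Much of the lower share of all counts came from COX3: without it the other 12 held 10.3% of GLE counts and 10.9% of DMSO counts. These shares are not TMM-scaled, and the larger ribosomal part of the GLE library enters their total. Set beside 26 genes outside the mitochondrial genome with at least 16251 counts, a depth that the messenger RNAs other than ND6 also reached, the spread toward lower values was wide. Of those 26 genes, 1 had a ratio of 2 or more and 0 had a ratio of 0.5 or less. The lowest was ALB at a ratio of 0.626. That set was chosen after the values were seen.

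**Figure D3:**
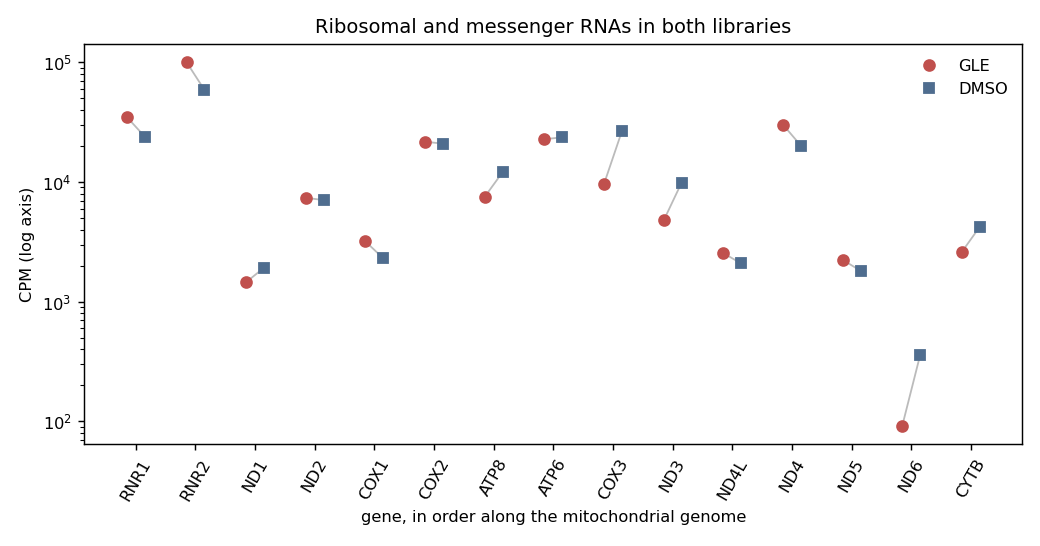
Level in CPM (y axis, log scale) of the 2 ribosomal and 13 messenger RNAs in order along the genome (x axis), with the GLE library as circles and the DMSO library as squares, joined per gene. The steepest lines are those of COX3 and ND6, both lower with GLE, and ND2, COX2 and ATP6 are nearly level, with a direction that depends on the scaling.

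Cytochrome c oxidase, complex IV, takes its core from COX1, COX2 and COX3, and these genes did not share a direction. COX3 (chrM:9207-9990) had 34084 counts or 9639 CPM with GLE and 153712 counts or 26603 CPM with DMSO. This was 2.76-fold lower, a ratio of 0.362 (0.358 to 0.367), which lay between 0.311 and 0.415 over the other scalings. In the DMSO library COX3 held more counts than any other messenger RNA of the organelle, 20% of their total, against 8.31% with GLE. COX1, the catalytic subunit (chrM:5904-7445), went the other way, with 11256 counts or 3183 CPM with GLE and 13264 counts or 2296 CPM with DMSO, a ratio of 1.39 (1.35 to 1.42). COX2, which takes electrons from cytochrome c (chrM:7586-8269), had 76776 counts or 21713 CPM with GLE and 120799 counts or 20907 CPM with DMSO. Its ratio of 1.04 (1.03 to 1.05) dropped below 1 when scaled by total counts or by the mitochondrial total. Complex IV as a whole took 29.8% of the messenger RNA counts with GLE and 37.5% with DMSO. That lower share rested on COX3. COX1 took 2.74% with GLE and 1.73% with DMSO, and COX2 took 18.7% with GLE and 15.7% with DMSO.

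Complex I passes electrons from NADH to ubiquinone, and 7 of its core subunits are encoded here. Its messenger RNAs took 41.9% of the messenger RNA counts with GLE and 32.5% with DMSO. ND4, a proton-pumping membrane subunit (chrM:10760-12137), had 106559 counts or 30136 CPM with GLE and 116378 counts or 20142 CPM with DMSO, a ratio of 1.496 (1.48 to 1.51). It was the most counted messenger RNA of the organelle with GLE, at 26.0% of their total, against 15.1% with DMSO. The higher complex I share with GLE rested on ND4. ND4L and ND5, on either side of ND4, were higher too. ND4L (chrM:10470-10766), a small membrane subunit, had 8993 counts with GLE and 12035 with DMSO, a ratio of 1.22 (1.19 to 1.25). ND5, another proton-pumping subunit (chrM:12337-14148), had 7915 counts with GLE and 10458 with DMSO and a ratio of 1.24 (1.20 to 1.27). All 3 stayed above 1 under every scaling tried, though ND4L came down to 1.05 and ND5 to 1.06 when scaled by the mitochondrial total.

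Other complex I genes were lower or near 1. ND3 (chrM:10059-10404), a small membrane subunit, had 16854 counts or 4767 CPM with GLE and 56979 counts or 9861 CPM with DMSO, a ratio of 0.483 (0.475 to 0.492). Scaling by the 13 messenger RNAs brought it to 0.554, short of 2-fold. ND1, which lies near the ubiquinone site (chrM:3307-4262), had 5137 counts with GLE and 11114 with DMSO and a ratio of 0.755 (0.731 to 0.781). ND2, a proton-pumping subunit (chrM:4470-5511), had 26073 counts with GLE and 40782 with DMSO. Its ratio of 1.04 (1.03 to 1.06) dropped below 1 when scaled by total counts or by the mitochondrial total.

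ND6 is the sole messenger RNA on the reverse strand (chrM:14149-14673). It had 324 counts or 91.6 CPM with GLE and 2066 counts or 358 CPM with DMSO, a ratio of 0.256 (0.227 to 0.288), and 0.294 at most under the other scalings. It was the least counted of the 13 in both libraries. The strand setting of the counting is not given in the sources used here, so reads from the opposite strand cannot be told apart from ND6 itself.

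CYTB, the sole mitochondrial-encoded subunit of complex III (chrM:14747-15887), had 9217 counts or 2607 CPM with GLE and 24414 counts or 4225 CPM with DMSO, a ratio of 0.617 (0.602 to 0.632). The ATP synthase genes ATP8 and ATP6 overlap by 46 bases and are carried on one messenger RNA. ATP8, a small membrane subunit (chrM:8366-8572), had 26603 counts with GLE and 69898 with DMSO, a ratio of 0.622 (0.613 to 0.631). ATP6, which forms the proton path (chrM:8527-9207), had 80561 counts with GLE and 136498 with DMSO and a ratio of 0.964 (0.956 to 0.973), and its ratio was above 1 when scaled by the 13 messenger RNAs. ATP8 thus made up 24.8% of the pair's counts with GLE (24.6 to 25.1) and 33.9% with DMSO (33.7 to 34.1), although both belong to the same RNA. ND4L and ND4, which also share an RNA and overlap by 7 bases, shifted less, with ND4L at 7.78% of the pair with GLE and 9.37% with DMSO. How reads that touch 2 genes were counted is not given in the sources used here.

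Per length, the order of the 13 messenger RNAs kept its ends and changed in the middle. On the scale of CPM per 100 bases, ATP8 and ATP6 led in both libraries, ATP8 at 3635 with GLE and 5844 with DMSO and ATP6 at 3346 with GLE and 3469 with DMSO. COX3 had rank 6 with GLE, at 1230, and rank 3 with DMSO, at 3393. ND4 had rank 4 with GLE, at 2187, and rank 6 with DMSO, at 1462. ND5 and ND6 came last in both libraries, ND5 at 124 with GLE and 99.9 with DMSO and ND6 at 17.5 with GLE and 68.1 with DMSO. A 3′ end kit does not read along the whole RNA, so these values rank counted reads, not molecules, and without replicates it cannot be said which neighbours in the order differ.

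The kit is made to read near the 3′ end of an RNA, so the last 30 bases of 5 messenger RNA genes are shown. They are 4 that end in a single T of the stop codon and ND6 of the reverse strand. Capitals mark the bases of the stop codon that the genome itself encodes. These are ends of annotated genes, which need not be the ends of the RNAs. Counts were not confined to RNA ends: ATP8, which ATP6 follows on the same RNA, had 26603 with GLE and 69898 with DMSO. Where priming took place was not tested. The sequences are taken from GENCODE release 29 transcripts of GRCh38, on the gene's own strand. A single T means that the poly(A) tail supplies the rest of the stop codon. In ND6 the capitals are the last codon, AGG.
COX3: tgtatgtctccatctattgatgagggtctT
ND3: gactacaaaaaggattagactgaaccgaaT
CYTB: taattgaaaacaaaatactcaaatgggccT
ND4: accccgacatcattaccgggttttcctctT
ND6: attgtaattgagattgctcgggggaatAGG
COX3 lies at chrM:9961-9990, ND3 at chrM:10375-10404, CYTB at chrM:15858-15887 and ND4 at chrM:12108-12137, on the forward strand, and ND6 at chrM:14149-14178 on the reverse strand. Both directions occurred among genes with a single T at the end, since COX3, ND3 and CYTB were lower and ND4 higher with GLE. Over the 6 messenger RNAs whose annotated gene ends inside the stop codon (these 4, ND1 and ND2), ratios ran from 0.362 to 1.496 with a median of 0.686. Over the 7 annotated with a whole last codon they ran from 0.256 to 1.39 with a median of 1.04. ATP6 is among the 7, but its last annotated base is also the first of COX3. Its group therefore depends on where the RNA is cut, which was not tested. The ranges overlap.

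Some neighbours along the genome lay on the same side in stretches. ATP8, ATP6, COX3 and ND3 are consecutive messenger RNAs with ratios below 1, apart from ATP6 under 1 scaling, and ND4L, ND4 and ND5 are consecutive with ratios above 1. The median difference in log2 ratio was 0.55 over the 12 pairs of neighbouring messenger RNAs and 0.76 over all 78 pairs. The 12 include pairs that share an RNA, and whether neighbours lie closer than other pairs was not tested. Sharp steps also fell between neighbours. COX3 and ATP6 share 1 base and no transfer RNA lies between them, yet COX3 made up 29.7% of the pair's counts with GLE (29.5 to 30) and 53.0% with DMSO (52.8 to 53.1). ND5 and ND6 meet end to end on opposite strands, and ND6 made up 3.93% of their counts with GLE (3.52 to 4.37) and 16.5% with DMSO (15.9 to 17.2).

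Nuclear copies of mitochondrial genes can compete for reads, and their place in the counting is not given in the sources used here. Of all 50-base windows of COX1, 49.5% also occur exactly in some other GENCODE transcript, as do 46.7% of ATP6, 43.6% of ND2, 30.6% of COX3, 28.98% of COX2 and 22.05% of ND1 windows. It was 17.86% for ND6, 14.04% for RNR2, 8.23% for ATP8, 4.76% for ND5, 3.54% for ND4 and 1.19% for CYTB. For RNR1, ND3, ND4L and every transfer RNA it was 0%. Only transcripts were searched, not the whole genome, so 0% does not mean that a gene has no nuclear copy. Of the genes with 0 shared windows, ND3 had a ratio of 0.483 and ND4L of 1.22. The count files analysed here hold 0 symbols named as copies of mitochondrial genes. COX1 also shares windows with AL669831.3 and MIR6723, which such names do not cover and which were not looked for. The part of nuclear copies in the ratios was not tested.

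The transfer RNAs carry amino acids to the mitochondrial ribosome and are not normally polyadenylated, so a poly(A) kit counts little of them. The 22 genes had 7359 counts with GLE and 8481 with DMSO, a ratio of 1.42 for the sum (1.37 to 1.46). TRNL1, TRNF and TRNV, which flank the ribosomal RNAs, made up 94.2% of these counts with GLE (93.7 to 94.7) and 77.4% with DMSO (76.5 to 78.3). The sum therefore speaks for 3 genes. The other 11 on the forward strand summed to 320 counts with GLE and 1076 with DMSO, a ratio of 0.486 (0.428 to 0.551). That sum in turn rests on TRNM and TRNS2, which had 521 and 231 of those DMSO counts. Both were lower with GLE, whereas TRNT, also among the 11, had a ratio of 1.59.

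Because these genes depart so far from one another, the ones that the results turn on are printed whole, from the same GENCODE transcripts, 5′ to 3′ on their own strand. Capitals mark runs of at least 4 A.
TRNF: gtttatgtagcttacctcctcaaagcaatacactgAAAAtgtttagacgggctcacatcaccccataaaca
TRNV: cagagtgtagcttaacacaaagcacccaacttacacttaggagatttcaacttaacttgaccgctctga
TRNL1: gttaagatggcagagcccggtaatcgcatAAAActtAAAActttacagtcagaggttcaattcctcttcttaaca
TRNM: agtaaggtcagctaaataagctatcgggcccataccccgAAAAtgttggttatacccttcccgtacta
TRNS2: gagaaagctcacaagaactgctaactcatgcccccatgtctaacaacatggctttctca
TRNY: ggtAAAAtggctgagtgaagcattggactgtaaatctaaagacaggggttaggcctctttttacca
On the forward strand TRNF lies at chrM:577-647, TRNV at chrM:1602-1670, TRNL1 at chrM:3230-3304, TRNM at chrM:4402-4469 and TRNS2 at chrM:12207-12265. TRNY lies at chrM:5826-5891 on the reverse strand. TRNV and TRNS2 hold no such run of A.

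The transfer RNA genes directly after each ribosomal RNA had higher counts with GLE. TRNV, for valine, sits between RNR1 and RNR2 and had 742 counts or 210 CPM with GLE and 212 counts or 36.7 CPM with DMSO, a ratio of 5.72 (4.90 to 6.69). TRNL1, a leucine transfer RNA, follows RNR2 and had 4374 counts or 1237 CPM with GLE and 2043 counts or 354 CPM with DMSO, a ratio of 3.50 (3.32 to 3.69). Both exceeded the difference of the ribosomal RNA before them. TRNV made up 0.598% of its counts with RNR1 in the GLE library (0.556 to 0.642) and 0.153% in the DMSO library (0.133 to 0.175). TRNL1 made up 1.22% of its counts with RNR2 in the GLE library (1.18 to 1.25) and 0.596% in the DMSO library (0.571 to 0.623).

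The gene before RNR1 did not share that direction. TRNF, for phenylalanine, opens the ribosomal stretch and had 1818 counts or 514 CPM with GLE and 4308 counts or 746 CPM with DMSO, a ratio of 0.690 (0.652 to 0.729). It made up 1.45% of its counts with RNR1 in the GLE library (1.39 to 1.52) and 3.02% in the DMSO library (2.93 to 3.11). TRNF had the most counts of the 22 with DMSO, and TRNL1 with GLE.

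**Figure D4:**
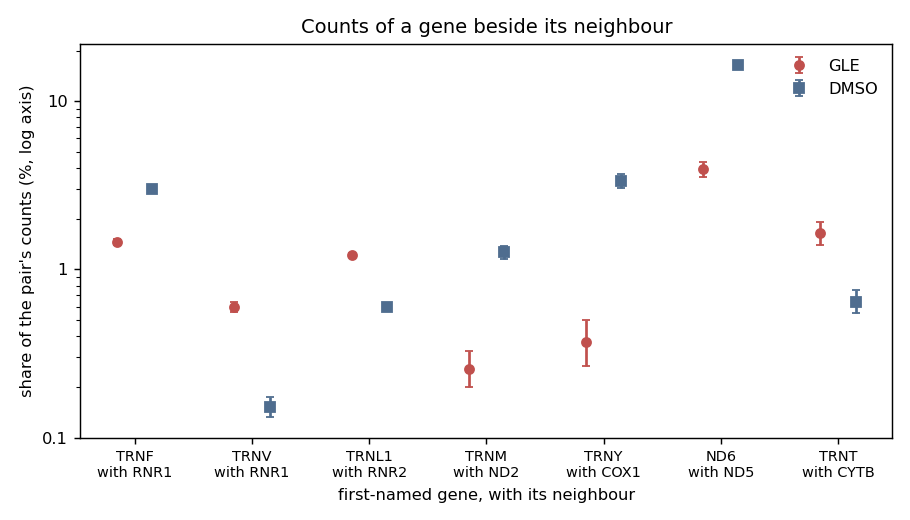
Share of a pair's counts (y axis, %, log scale) held by the first-named gene beside the neighbour named under it (x axis), with GLE as circles and DMSO as squares and bars for the 95% counting interval. TRNV, TRNL1 and TRNT take a larger share with GLE, and TRNF, TRNM, TRNY and ND6 a larger share with DMSO (TRNY and ND6 lie on the strand opposite to their neighbours).

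Of the 5 other measured transfer RNA genes of the forward strand, 3 had counts at least 2-fold lower with GLE, TRNS2, TRNL2 and TRNM. Of all measured genes, 10.5% were that much lower. TRNS2 and TRNL2 passed the minimum through their DMSO counts, so the 3 describe the genes that passed. TRNS2, a serine transfer RNA in the cluster between ND4 and ND5, had 8 counts or 2.26 CPM with GLE and 231 counts or 40.0 CPM with DMSO, a ratio of 0.0566 (0.0241 to 0.113). In the same cluster TRNL2, the second leucine transfer RNA, had 8 counts with GLE and 41 with DMSO, and TRNH, for histidine, had 10 in each. TRNM, for methionine, directly before ND2, had 67 counts or 18.9 CPM with GLE and 521 counts or 90.2 CPM with DMSO, a ratio of 0.210 (0.160 to 0.271). ND2 itself differed little, so that TRNM made up 0.256% of the pair's counts with GLE (0.199 to 0.325) and 1.26% with DMSO (1.16 to 1.37). TRNT, for threonine, after CYTB, had 154 counts with GLE and 158 with DMSO, a ratio of 1.59 (1.27 to 2.001) against 0.617 for CYTB. TRNI, for isoleucine, after ND1, had 58 counts with GLE and 97 with DMSO, and its ratio of 0.977 (0.693 to 1.37) was not distinguishable from 1 at this depth.

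On the reverse strand the difference lay to one side. The 8 reverse strand transfer RNAs summed to 105 counts with GLE and 842 with DMSO, a ratio of 0.204 (0.165 to 0.2499). They made up 1.43% of all transfer RNA counts with GLE (1.17 to 1.72) and 9.93% with DMSO (9.30 to 10.6). TRNY, for tyrosine, had 42 counts or 11.9 CPM with GLE and 460 counts or 79.6 CPM with DMSO, a ratio of 0.149 (0.106 to 0.205). TRNP, for proline, had 35 counts with GLE and 204 with DMSO, a ratio of 0.280 (0.190 to 0.403). Without these 2 genes the other 6 summed to 28 counts with GLE and 178 with DMSO, a ratio of 0.257 (0.166 to 0.384), so the direction did not rest on them.

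Smaller counts on that strand were lower with GLE too, but they add no separate support for the direction. Such genes pass the minimum more readily when high in one library, and TRNC, TRNQ, TRNA and TRNE passed mainly through their DMSO counts. Their ratios describe the genes that passed, whereas the strand sums above also took in genes under the minimum. TRNC, for cysteine, had 13 counts with GLE and 75 with DMSO, a ratio of 0.283 (0.144 to 0.514), and TRNQ, for glutamine, 1 with GLE and 40 with DMSO, a ratio of 0.0409 (0.00101 to 0.241). TRNA, for alanine, had 3 counts with GLE and 27 with DMSO, just at the minimum, and a ratio of 0.182 (0.0353 to 0.590). TRNE, for glutamate, directly beyond ND6, had 11 counts with GLE and 34 with DMSO, and its ratio of 0.529 (0.242 to 1.07) took in 1. Together with ND6, the 9 reverse strand genes held 0.0479% of mitochondrial counts with GLE (0.0435 to 0.0526) and 0.232% with DMSO (0.223 to 0.240). As for ND6, reads of the opposite strand cannot be told apart from these genes while the strand setting is unknown.

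Under the minimum were TRNW, for tryptophan, with 3 counts with GLE and 2 with DMSO, TRNS1, a serine transfer RNA, with 0 with GLE and 2 with DMSO, TRND, for aspartate, with 4 with GLE and 0 with DMSO, and TRNG, for glycine, with 5 with GLE and 15 with DMSO. TRNR, for arginine, had 3 counts with GLE and 1 with DMSO, and TRNH, as given, 10 in each. TRNN and TRNK, for asparagine and lysine, had 0 counts in both, where the limit that a count of 0 allows (3 counts) was 0.848 CPM with GLE and 0.519 CPM with DMSO. No difference was detectable for these 8 at this depth, except that TRND, with 4 counts against 0, had an interval starting at a ratio of 1.08.

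The nuclear genes that make and handle mitochondrial RNA had far fewer counts. Past 2-fold, 3 of 9 genes of mitochondrial transcription were higher and 0 lower, and their median log2 ratio was 0.23. Of all measured genes, 9.54% were that much higher and 10.5% that much lower, which holds beside the lists below too. The summed counts of the 9 had a ratio of 1.00 (0.926 to 1.09). The counting interval lay above 1 for 5 of them and below 1 for 2, the lowest ratio being 0.742. The genes named here are all on the higher side. TEFM, which lets the mitochondrial RNA polymerase elongate, had 54 counts with GLE and 36 with DMSO, a ratio of 2.45 (1.58 to 3.85). MTERF1, of the mitochondrial termination factor family, had 28 counts with GLE and 21 with DMSO, a ratio of 2.18 (1.19 to 4.04). MTERF3, of the same family, had 30 with GLE and 24 with DMSO, a ratio of 2.04 (1.15 to 3.65). TFB2M, which opens the promoter, had 83 counts with GLE and 82 with DMSO, a ratio of 1.65 (1.20 to 2.27).

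Of 12 genes that cut or finish the precursors, 0 lay past 2-fold on the higher side and 2 on the lower, and the median log2 ratio was -0.10. PRORP, the nuclease of mitochondrial RNase P, which cuts at the 5′ end of transfer RNAs, had 9 counts with GLE and 44 with DMSO, a ratio of 0.334 (0.143 to 0.694). HSD17B10, another RNase P subunit, had 146 counts with GLE and 415 with DMSO and a ratio of 0.575 (0.473 to 0.696). FASTKD3, of a family of RNA-binding proteins that act on mitochondrial RNA, had 22 counts with GLE and 76 with DMSO, a ratio of 0.473 (0.280 to 0.769), and ANGEL2 had 145 counts with GLE and 144 with DMSO, a ratio of 1.65 (1.30 to 2.09).

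Of 15 genes that add tails to mitochondrial RNA, modify it, stabilise it or degrade it, 0 lay past 2-fold on the higher side and 2 on the lower, and the median log2 ratio was -0.14. TRMT61B, which methylates mitochondrial RNA, had 24 counts with GLE and 98 with DMSO, a ratio of 0.400 (0.245 to 0.630). MRM1, a ribosomal RNA methyltransferase, had 12 with GLE and 50 with DMSO, a ratio of 0.392 (0.190 to 0.747). SUPV3L1, the helicase of the mitochondrial RNA degradosome, had 122 counts with each and a ratio of 1.63 (1.26 to 2.12). SLIRP, which stabilises mitochondrial messenger RNAs, had 824 counts with GLE and 1637 with DMSO and a ratio of 0.823 (0.756 to 0.895).

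Of 12 genes of mitochondrial DNA replication and nucleotide supply, 10 were measured, of which 1 lay past 2-fold on the higher side and 0 on the lower, around a median log2 ratio of 0.00. RRM2B, a ribonucleotide reductase subunit, had 49 counts with GLE and 28 with DMSO, a ratio of 2.86 (1.76 to 4.73). TWNK, the helicase of the replication fork, had 98 counts with GLE and 294 with DMSO, a ratio of 0.545 (0.429 to 0.687). LIG3, a DNA ligase, had 136 with GLE and 366 with DMSO, a ratio of 0.607 (0.495 to 0.741). TOP1MT, the mitochondrial topoisomerase, had 104 with GLE and 263 with DMSO, a ratio of 0.646 (0.510 to 0.814). Counts past 2-fold in these 4 lists are to be read against 9.54% and 10.5% of all measured genes, and nothing particular to the lists follows from them.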

How the data were processed

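RNA was counted in 2 Hep3B libraries, 1 with GLE and 1 with DMSO. The deposited values are raw read counts per gene symbol, without normalization. The submitters' processing notes name fastp, STAR and HTSeq as tools and GRCh38 as the build. No source used here gives their versions, the annotation, the read length or the strand setting. TMM factors (edgeR 4.0.16, R 4.3.3) were 0.972 for GLE and 1.03 for DMSO over all 43424 symbols. Ratio intervals are exact Clopper-Pearson bounds of the GLE share of a gene's counts, computed with SciPy 1.17.1 in Python 3.11.15. Intervals and floors hold counting error alone, as if every read were its own molecule, which is not known without molecular identifiers. On the log2 scale 0.5 was added to each count. The computation was tested on simulated data. The members and lists were chosen with earlier results of these data known. Of each of the 4 nuclear lists, up to 4 genes were named, those whose interval bound nearest to 1 lay farthest from 1. Nuclear copies with symbols built on mitochondrial gene names were to be listed too, and 0 were in the files. Coordinates come from RefSeq (GRCh38.p14) and were equal in GENCODE 29 for all 37 genes. Figures were drawn with matplotlib 3.10.9. One marker gene of the blood and immune list is not reported here.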

Additional observations from a re-analysis of the deposited data

How the results depend on the processing

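Other choices were scaling by total counts, DESeq2 1.42.0 size factors, upper-quartile factors, a median of 1 over genes with 100 or more counts, TMM on nuclear genes, the total of the 37 genes or that of the 13 messenger RNAs, minimums of 10, 100 or no counts, 2 added to each count, the DMSO library thinned to the GLE depth, and calls only where the whole interval lay beyond 2-fold. The counts of genes at least 2-fold higher (2) or lower (11) stayed within 1.5 times in 25 of 26 recomputed values. The exception was a minimum of 100 counts, which left 7 lower genes because fewer genes were tested. Calls on the whole interval gave 2 higher and 8 lower. None of 261 recomputed ratios turned a 2-fold call to the other direction, and 73 moved outside their counting interval. ND2, COX2, ATP6 and TRNI crossed 1 under at least 1 scaling. Scaling by the 37 genes shifted every log2 ratio by -0.22 and by the 13 messenger RNAs by 0.20. The mitochondrial share was 13.2% with GLE and 15.1% with DMSO without RNR1 and RNR2, and 26.6% with GLE and 24.1% with DMSO without the 20 most counted nuclear genes. Adding nuclear copies was not run, since none with a symbol built on a mitochondrial gene name was in the files. No paired analysis was possible because each group has 1 library. Depth limits the transfer RNAs most.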
